A study of Mus musculus with 15 samples.

Results

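The genes of creatine synthesis, uptake and phosphorylation were followed across 5 lines of 4T1 cells, a mammary carcinoma line of the mouse. They are Gatm, Gamt, Slc6a8, Ckb, Ckm, Ckmt1 and Ckmt2, 7 of the 19937 genes with a named probe set. The set was chosen by measured values, namely the lower Gatm signal of the S42A and S42D lines than of the wild-type Twist1 line. For this reason Gatm was tested in a single comparison, Tw1KD against parental cells, whose difference uses no array of that choice. The test is not fully separate from the choice, because its spread was estimated from the arrays of all lines. No gene of the set was tested in S42A or S42D against wild-type Twist1, and values there are given as a description.

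Each line was read on 3 arrays, 15 in all. Parental 4T1 cells were the control. Tw1KD cells were depleted of Twist1, a basic helix-loop-helix transcription factor that drives epithelial-mesenchymal transition. The remaining lines were Tw1KD cells given back wild-type Twist1, Twist1 with alanine for serine 42 (S42A) or Twist1 with aspartate for serine 42 (S42D), so all of these carry the depletion too. Serine 42 is known as a phosphorylation site of the kinase Akt, alanine cannot be phosphorylated, and aspartate is used as a mimic of phosphoserine. The S42D samples were assigned by their titles, since their genotype entry mentions S42A as well as S42D. Growth medium with 4 ug/ml puromycin and 800 ug/ml G418 is stated for all cells, with no separate word on parental cells. How Twist1 was depleted, and whether a line was 1 clone, are not given in the sources used here. Nothing in the labels tells separate cultures from repeat arrays, so p-values measure only the spread between these samples, which may be technical. In bulk RNA, fewer cells with a transcript and less of it per cell cannot be told apart.

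Creatine is made from arginine and glycine. GATM transfers the amidino group of arginine to glycine in mitochondria, which yields guanidinoacetate and ornithine, and GAMT then methylates guanidinoacetate with S-adenosylmethionine to give creatine. Most cells instead take creatine up through the sodium- and chloride-dependent transporter SLC6A8. Creatine kinases move phosphate between ATP and creatine, which buffers ATP where it is used. CKB is the cytosolic brain-type enzyme, also found in epithelia, CKM is the cytosolic muscle-type enzyme, CKMT1 is the ubiquitous mitochondrial enzyme and CKMT2 is the mitochondrial enzyme of striated muscle.

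Twist1 and its relatives bind E-boxes, sequences of the form CANNTG. The upstream sequence of the genes with the widest ranges in the synthesis and kinase steps is shown, because the lines differ in the state of such a factor. The windows are the 250 bases before the annotated start in RefSeq (GRCm38.p6), written 5′ to 3′ on the strand of the gene, with any E-box in capitals. They lie at chr2:122611278-122611527 for Gatm, chr10:80261013-80261262 for Gamt and chr12:111672339-111672588 for Ckb, all on the minus strand.
Gatm: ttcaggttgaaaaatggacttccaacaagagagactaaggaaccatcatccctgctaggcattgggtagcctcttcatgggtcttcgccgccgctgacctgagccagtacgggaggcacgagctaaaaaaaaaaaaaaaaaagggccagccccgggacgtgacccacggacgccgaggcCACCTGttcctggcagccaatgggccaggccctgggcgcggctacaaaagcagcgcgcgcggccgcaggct
Gamt: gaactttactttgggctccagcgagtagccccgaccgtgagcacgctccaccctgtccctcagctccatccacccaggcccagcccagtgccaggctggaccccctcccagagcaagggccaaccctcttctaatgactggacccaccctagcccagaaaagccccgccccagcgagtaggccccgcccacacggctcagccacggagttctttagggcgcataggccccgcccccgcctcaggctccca
Ckb: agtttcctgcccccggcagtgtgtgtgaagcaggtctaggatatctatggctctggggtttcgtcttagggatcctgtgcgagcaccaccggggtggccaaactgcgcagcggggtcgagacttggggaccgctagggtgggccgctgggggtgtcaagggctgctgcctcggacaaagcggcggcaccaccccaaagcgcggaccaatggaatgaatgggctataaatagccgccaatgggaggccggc

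The Gatm window held 1 E-box, CACCTG, at 71 to 66 bases before the start, and the Gamt and Ckb windows held none. Of 32851 mouse promoter windows of the same length, 66.2% held a CANNTG and 17.2% held a CACCTG on either strand, so these matches are common. The CATCTG form was in 14.4% and the CATATG form in 3.46% of windows, and neither was in the Gatm, Gamt or Ckb windows. A CCAAT box, searched on both strands and a common element of promoters, was in 33.8% of windows. Gatm had CCAAT letters at 55 to 51 bases before the start and the reverse complement, ATTGG, at 190 to 186. Ckb had CCAAT at 46 to 42 and at 16 to 12 bases. Windows were found for 6 of the 7 genes. Ckm had 1 E-box and Ckmt2 had 4, a number that 3.84% of windows reach or exceed, and neither window of Ckmt1 had one. The E-boxes of Ckmt2 included a CACCTG at 153 to 148 bases. Ckmt2 also had CCAAT at 145 to 141 and ATTGG at 69 to 65, and a Ckmt1 window had ATTGG at 242 to 238.

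The arrays of a line correlated at 0.993 to 0.997 over all probe sets and those of different lines at 0.976 to 0.988. Twist1 itself had mean log2 signals of 9.03 in parental cells, 7.35 in Tw1KD cells, 8.33 in the wild-type Twist1 line, 8.70 in S42A and 9.0 in S42D. The lines with a returned Twist1 thus differed in its level as well as in its sequence, and the part of that level in the results was not tested. Among epithelial markers, Krt8 and Krt18 were bright in all lines, while others moved in both directions. In Tw1KD against parental cells, 8 of 15 were called higher and 3 lower, beside 36.3% of all genes called. Esrp1 fell from 7.84 in parental cells to 5.20 in Tw1KD, and Gata3 from 11.80 to 10.99. The adhesion gene Epcam had log2 means of 8.36 in parental cells, 9.76 in Tw1KD, 5.66 in wild-type Twist1, 5.55 in S42A and 5.63 in S42D, and the keratin Krt19 had 10.07, 11.10, 8.74, 6.01 and 8.62. The summed signal of 15 epithelial markers was 15.03 to 15.10 log2 over the Tw1KD arrays, 14.68 to 14.74 in parental cells, 14.37 to 14.41 in the wild-type Twist1 line, 14.38 to 14.39 in S42A and 14.49 to 14.51 in S42D. The brightest genes, such as Krt8, weigh most in that sum. Against wild-type Twist1, 2 of the 15 were called higher and 5 lower, in S42A and in S42D alike. Of all genes, 40.0% and 43.3% were called there. Cldn4 had log2 means of 9.76 in the wild-type line, 7.30 in S42A and 7.15 in S42D. Cdh1 had 8.52, 6.34 and 7.50 in the same order, while Krt7 went the other way, with 10.10, 11.09 and 11.73. Of 30 muscle markers, 24 to 28 lay below the median gene in each line. The muscle factors Myod1 and Myog stood at log2 means of 6.48 to 6.70 and 5.98 to 6.37. Other muscle markers moved more. Tnnt3 went from 8.67 in parental cells to 7.19 in Tw1KD, Des from 6.84 in Tw1KD to 7.77 in S42A, and Acta1 from 7.36 in Tw1KD to 8.14 in S42D. In Tw1KD against parental cells, 2 of the 30 were called higher and 3 lower. Against Tw1KD, these counts were 2 and 5 for wild-type Twist1, 6 and 2 for S42A, and 3 and 2 for S42D. Tnnc1 was called lower each time, with log2 differences from Tw1KD of -0.74, -0.36 and -0.42 in that order. The leukocyte gene Ptprc (5.11 to 5.23) and the endothelial gene Pecam1 (5.52 to 5.60) were dim in all lines, but single genes of the marker lists moved between lines. Cd68 went from 8.50 in parental cells to 10.38 in Tw1KD, Cdh5 from 6.35 in wild-type Twist1 to 10.67 in S42D, and Pdgfrb from 6.36 in Tw1KD to 10.55 in S42D. The summed log2 signal over all arrays ran from 9.95 to 11.17 for 10 leukocyte markers, 8.94 to 11.02 for 8 endothelial markers and 10.62 to 12.32 for 10 fibroblast markers. The part of these markers in the results was not tested.

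Gatm had the widest range of the set. On the log2 scale its signal was 8.21, 8.12 and 8.23 on the parental arrays, and 9.67, 9.20 and 9.62 on the Tw1KD arrays. It was 10.37, 10.45 and 10.41 in the wild-type Twist1 line. It was 5.51, 5.32 and 5.58 in S42A and 5.68, 5.62 and 5.34 in S42D. The wild-type line was highest, then Tw1KD, then parental cells, with no overlap between any of these, and the S42A and S42D arrays lay far below all others and overlapped with each other. Parental cells, with the endogenous gene, therefore stood between Tw1KD cells and the substituted lines. In Tw1KD cells Gatm rose by 1.31 ± 0.11 log2 (SE, n = 3 arrays per line), 2.48-fold, against parental cells (limma adjusted p = 4.1e-07). A difference of that size or more was seen in 1.48% of genes in this comparison. That fit took its spread from all lines, including those that chose Gatm. With only Tw1KD and parental cells in the fit, the limma adjusted p for Gatm was 0.00017. The second Tw1KD array was the lowest of its line, and over all alternatives the difference lay between 1.22 and 1.46 log2.

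**Figure D1:**
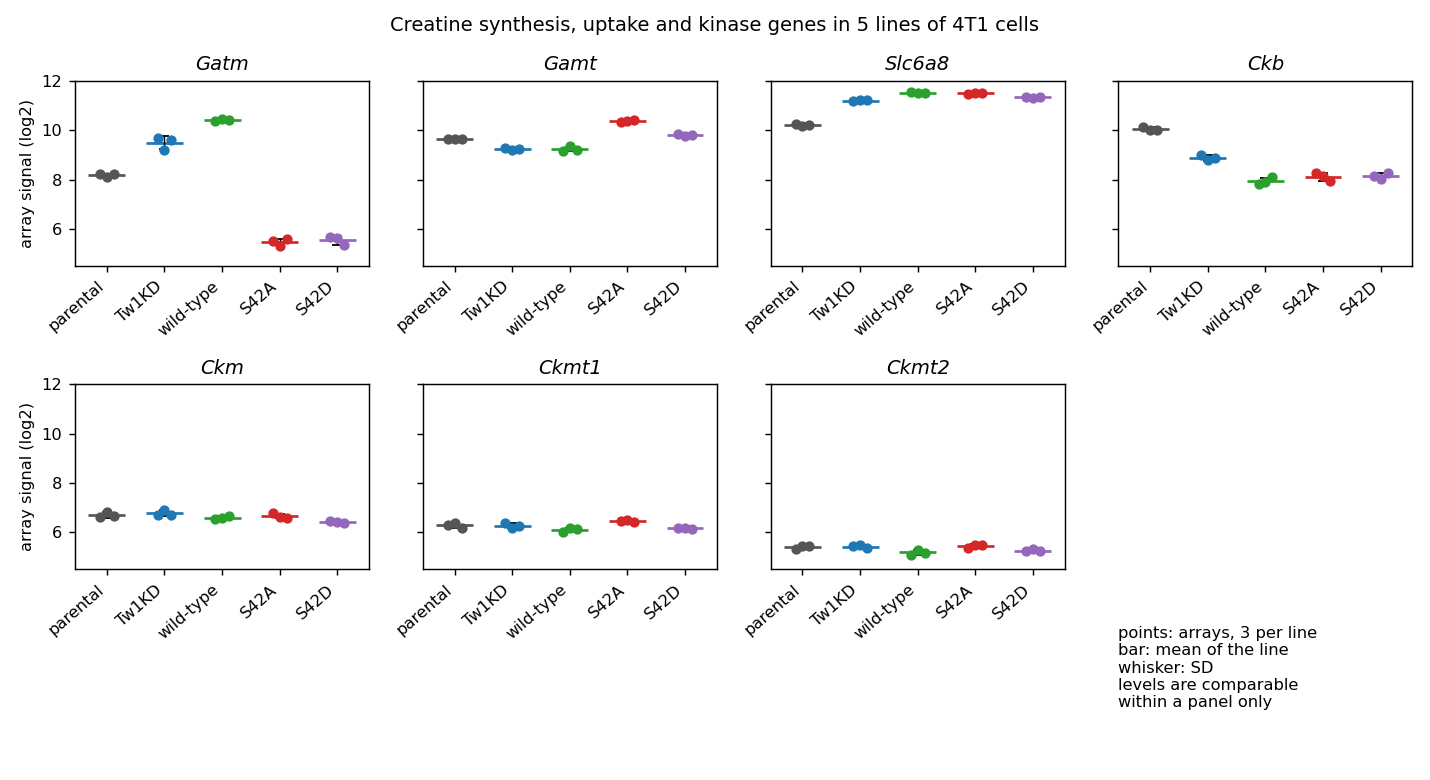
Array signal (log2) of the 7 genes in parental, Tw1KD, wild-type Twist1, S42A and S42D cells, with a point per array, a bar at the mean and a whisker of 1 SD. Gatm falls to means of 5.47 and 5.54 in S42A and S42D from 10.41 in the wild-type line, Gamt is highest in S42A, Slc6a8 is lowest and Ckb highest in parental cells, and the other kinases stay within narrow bands.

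The values that chose the set are these differences, given with no test. Against wild-type Twist1, Gatm was lower by 4.94 log2 in S42A, 30.7-fold, and by 4.86 log2 in S42D, 29.1-fold. The S42A mean of 5.47 lay in the dimmest 25% of line means, below 5.50, and the S42D mean of 5.54 just above it. Signals so near the bottom of the array understate a fold. Against Tw1KD cells, from which all 3 lines came, Gatm differed by 0.91 log2 in the wild-type line, -4.03 in S42A and -3.95 in S42D. Wild-type Twist1 and its substituted forms thus lay on opposite sides of Tw1KD cells. S42D and S42A differed from each other by 0.075 ± 0.11 log2. The span of the line means of Gatm, 4.94 log2, ranked 22 of 19937 genes, against a median span of 0.36.

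Genes whose signal followed Gatm most closely were sought among the 2424 genes with a span of line means of at least 1 log2, by Pearson's r over the 15 arrays. These arrays come from only 5 lines, so r mostly describes the order and spacing of 5 means. The highest values were for Bend6, which encodes a BEN domain protein (r = 0.992), Adm, the vasodilator peptide adrenomedullin (r = 0.986), and Ldhb, the B subunit of lactate dehydrogenase (r = 0.977). Lmbrd1, a lysosomal exporter of cobalamin (r = 0.975), Dram1, a lysosomal regulator of autophagy (r = 0.971), and Slc16a10, a transporter of aromatic amino acids (r = 0.967), came next. Their ranges were smaller than that of Gatm. Bend6, for example, had log2 means of 8.84 in parental cells, 9.27 in Tw1KD, 9.80 in wild-type Twist1, 7.84 in S42A and 7.94 in S42D. Ldhb had 8.21, 8.30, 9.05, 6.99 and 6.75 in the same order.

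The named genes next to Gatm on its chromosome did not share its range. They are described with no test, because the contrast is the one that chose Gatm. On one side, S42A and S42D differed from wild-type Twist1 by -0.35 and -0.44 log2 for Spata5l1, by -0.34 and -0.22 for the zinc transporter Slc30a4 and by -0.35 and -0.45 for Bloc1s6. Sqor, a sulfide-oxidising enzyme of mitochondria, differed by 0.46 and -0.0059. On the other side, Shf differed by 0.27 and 0.43 and Duox1, an epithelial oxidase, by 0.15 and 0.059. The nucleoside transporter genes Slc28a2 and Slc28a2b were dim on all arrays, with no array above 4.90 log2. The lower signal of the 3 genes next to Gatm on the first side ran the same way as Gatm, at a far smaller size.

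**Figure D2:**
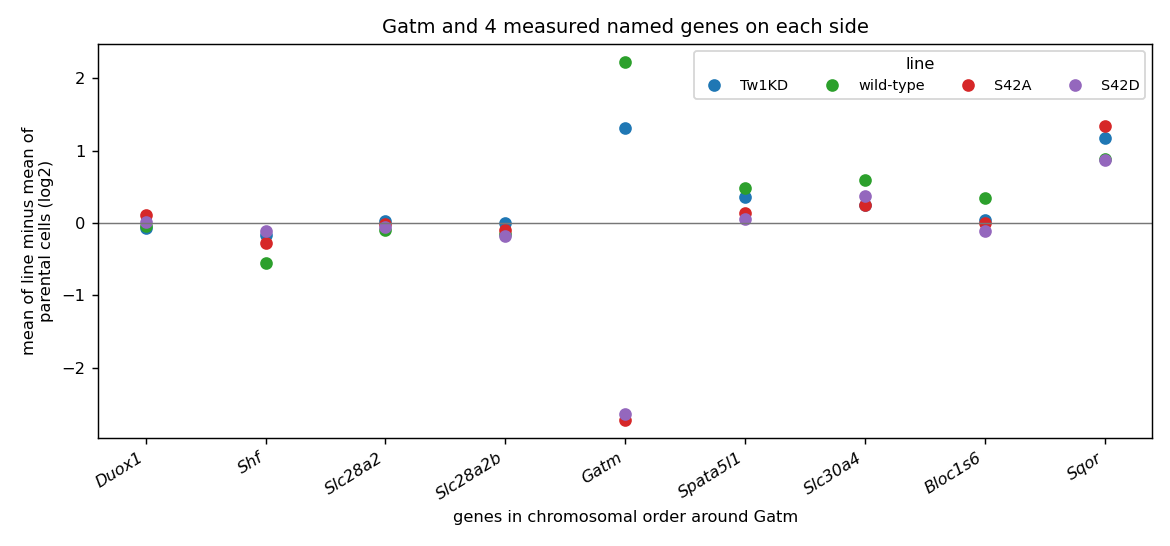
Mean signal of each line minus that of parental cells (log2) for Gatm and the 4 nearest measured named genes on each side, in chromosomal order and not to scale, with a point per line. Gatm ranges from -2.72 in S42A to 2.22 in the wild-type line, while of the 8 neighbours only Sqor moves by more than 1.

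Gamt, the second enzyme of synthesis, was highest in S42A. Its log2 signal was 9.63, 9.65 and 9.64 in parental cells, 9.29, 9.20 and 9.23 in Tw1KD and 9.18, 9.36 and 9.20 in the wild-type line. It was 10.35, 10.37 and 10.41 in S42A and 9.86, 9.78 and 9.81 in S42D. S42A arrays lay above all others and S42D arrays came next, with parental cells just below and the overlapping Tw1KD and wild-type arrays at the bottom. Gamt fell by 0.40 ± 0.049 log2 in Tw1KD against parental cells (limma adjusted p = 1.2e-05). Against Tw1KD cells it rose by 1.14 ± 0.049 log2 in S42A (adjusted p = 1.4e-10) and by 0.58 in S42D (adjusted p = 1.9e-07), but it differed by 0.0070 ± 0.049 in the wild-type line, which was not called (adjusted p = 0.92). S42D lay 0.56 ± 0.049 log2 below S42A (adjusted p = 4.4e-07). Against parental cells, Gamt was 0.39 lower in the wild-type line (adjusted p = 9e-06), 0.73 higher in S42A (adjusted p = 2.1e-08) and 0.18 higher in S42D (adjusted p = 0.011). The last of these was 0.097 and not called after quantile normalization. The lines with the least Gatm signal were thus those with the most Gamt signal. Against wild-type Twist1, with no test, Gamt differed by 1.13 log2 in S42A and 0.57 in S42D.

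Slc6a8, the creatine transporter, was higher in every derived line than in parental cells. Its log2 signal was 10.24, 10.17 and 10.21 in parental cells, 11.18, 11.22 and 11.22 in Tw1KD and 11.55, 11.51 and 11.51 in the wild-type line. It was 11.49, 11.50 and 11.53 in S42A and 11.37, 11.32 and 11.34 in S42D. No derived array overlapped with the parental ones, and the wild-type and S42A arrays overlapped at the top. Slc6a8 rose by 1.0 ± 0.036 log2 in Tw1KD against parental cells (limma adjusted p = 4e-11). It rose further against Tw1KD cells, by 0.32 ± 0.036 in the wild-type line (adjusted p = 3.4e-06) and 0.30 in S42A (adjusted p = 6e-06). The 0.14 in S42D (adjusted p = 0.0052) became 0.094 with each array centred on its median and 0.045 after quantile normalization, and was not called under either. S42D lay 0.16 below S42A (adjusted p = 0.0022). Against parental cells the rise was 1.32 log2 in the wild-type line (adjusted p = 2.8e-12), 1.30 in S42A (adjusted p = 2.2e-12) and 1.14 in S42D (adjusted p = 1.2e-11). Against wild-type Twist1, with no test, S42A differed by -0.014 and S42D by -0.18.

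Ckb, the cytosolic kinase, was highest in parental cells and lower in every derived line. Its log2 signal was 10.13, 10.02 and 10.02 in parental cells, 9.01, 8.78 and 8.89 in Tw1KD and 7.84, 7.92 and 8.09 in the wild-type line. It was 8.27, 8.16 and 7.94 in S42A and 8.13, 8.04 and 8.27 in S42D. Tw1KD arrays stood apart between the parental cells and the 3 lines with a returned Twist1, which overlapped. Ckb fell by 1.16 ± 0.091 log2, 2.24-fold, in Tw1KD against parental cells (limma adjusted p = 1.4e-07). Against Tw1KD cells it fell by a further 0.94 ± 0.091 in the wild-type line (adjusted p = 6.5e-07), 0.77 in S42A (adjusted p = 5.9e-06) and 0.75 in S42D (adjusted p = 8.1e-06). The depletion of Twist1 and its return thus both went with lower Ckb. Against parental cells the difference was -2.1 log2 in the wild-type line, 4.30-fold (adjusted p = 1.8e-10), -1.93 in S42A (adjusted p = 5.6e-10) and -1.91 in S42D (adjusted p = 8.6e-10). S42D and S42A differed by 0.021 ± 0.091, which was not called (adjusted p = 0.9). Against wild-type Twist1, with no test, S42A differed by 0.17 and S42D by 0.20.

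The genes closest to Ckb over the 15 arrays were Klhl33 (r = 0.982), Papln, a matrix proteoglycan gene (r = 0.970), and Fermt1, the epithelial kindlin (r = 0.966). They were followed by C1qtnf12 (r = 0.961), Tnnc1, which encodes a troponin C of slow and cardiac muscle (r = 0.956), and Dyrk1b, a protein kinase gene (r = 0.954). All had their highest line mean in parental cells, as Ckb had. Fermt1, with the widest range of these, had log2 means of 7.60 in parental cells, 5.73 in Tw1KD, 4.94 in wild-type Twist1, 5.13 in S42A and 5.29 in S42D.

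The muscle-type and mitochondrial kinases lay below the median gene in every line and moved little. The spans of their line means, 0.36 log2 for Ckm, 0.36 for Ckmt1 and 0.26 for Ckmt2, were at or below the median span of 0.36 over all genes. Over the 15 arrays Ckm lay between 6.37 and 6.91, Ckmt1 between 6.0 and 6.50 and Ckmt2 between 5.10 and 5.50, with Ckmt2 in the dimmest 25% in every line. Calls for these genes therefore rest on differences of at most 0.36 log2, 1.28-fold. None of the 3 was called in Tw1KD against parental cells, with differences of 0.077 ± 0.069 for Ckm (limma adjusted p = 0.46), -0.022 ± 0.062 for Ckmt1 (adjusted p = 0.85) and 0.017 ± 0.060 for Ckmt2 (adjusted p = 0.88).

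Ckm was lowest in S42D, where its arrays read 6.48, 6.43 and 6.37. It read 6.62, 6.83 and 6.67 in parental cells, 6.72, 6.91 and 6.72 in Tw1KD, 6.55, 6.59 and 6.66 in the wild-type line and 6.77, 6.64 and 6.59 in S42A. S42D arrays did not overlap with those of any other line, while the other lines, ordered by their means, each overlapped with the next. Ckm was lower in S42D than in Tw1KD by 0.36 ± 0.069 log2 (limma adjusted p = 0.00055) and than in parental cells by 0.28 (adjusted p = 0.0047). It was lower than in S42A by 0.24 (adjusted p = 0.013), a call lost without S42A replicate 1 (-0.19) or S42D replicate 3 (-0.21). The difference of -0.18 in the wild-type line against Tw1KD (adjusted p = 0.039) was not called without Tw1KD replicate 2 (-0.12), wild-type replicate 1 (-0.16) or wild-type replicate 2 (-0.18), nor under median centring, quantile normalization and 3 other settings. S42A differed from Tw1KD by -0.12 (adjusted p = 0.2).

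Ckmt1, the ubiquitous mitochondrial kinase, was highest in S42A, at 6.45, 6.50 and 6.42. It was 6.32, 6.38 and 6.18 in parental cells, 6.38, 6.18 and 6.25 in Tw1KD, 6.0, 6.17 and 6.13 in the wild-type line and 6.19, 6.18 and 6.15 in S42D. S42A arrays lay above those of all other lines, and the other lines, ordered by their means, each overlapped with the next. S42D was lower than S42A by 0.28 ± 0.062 log2 (limma adjusted p = 0.002), a call kept under each alternative. S42A was higher than Tw1KD by 0.19 (adjusted p = 0.026), a call lost without Tw1KD replicate 2 (0.14) or 3 (0.18) and without S42A replicate 1 (0.19) or 2 (0.16). The wild-type line was lower than Tw1KD by 0.17 (adjusted p = 0.037), a call lost when Tw1KD replicate 1 (-0.11), Tw1KD replicate 3 (-0.18), wild-type replicate 1 (-0.12) or wild-type replicate 3 (-0.19) was left out, and under median centring (-0.12) or quantile normalization (-0.093). Both of these calls against Tw1KD were also lost with only the lines compared in the fit and under eBayes with trend and robust.

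Ckmt2, the striated-muscle mitochondrial kinase, was lowest in the wild-type line. It read 5.34, 5.45 and 5.43 in parental cells, 5.43, 5.49 and 5.35 in Tw1KD, 5.10, 5.30 and 5.17 in the wild-type line, 5.35, 5.50 and 5.49 in S42A and 5.25, 5.31 and 5.23 in S42D. The arrays of parental cells, Tw1KD and S42A overlapped, as did those of the wild-type and S42D lines below them. The wild-type line was lower than Tw1KD by 0.23 ± 0.060 log2 (limma adjusted p = 0.0046), a call lost after quantile normalization (-0.15). S42D was lower than S42A by 0.18 (adjusted p = 0.025), a call lost without S42A replicate 2 (-0.16) or 3 (-0.16) or S42D replicate 1 (-0.18) or 3 (-0.17). That call was also lost after quantile normalization (-0.15) and under eBayes with trend and robust. S42D was lower than Tw1KD by 0.16 (adjusted p = 0.043), a call lost without Tw1KD replicate 1 (-0.16) or 2 (-0.13) or S42D replicate 1 (-0.15) or 3 (-0.15). This call was also lost after quantile normalization (-0.12), with only the lines compared in the fit and under eBayes with trend and robust.

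Counted over the set, depletion of Twist1 came with 2 genes higher (Gatm and Slc6a8), 2 lower (Gamt and Ckb) and 3 not called, in a comparison in which 36.3% of all genes were called. The other comparisons leave out Gatm and count 6 genes. In the wild-type line against Tw1KD, 1 was higher and 4 were lower, against 48.0% of all genes, and the count of 5 fell to 2 after quantile normalization and to 3 under median centring or without wild-type replicate 1. In S42A against Tw1KD, 3 were higher and 1 lower, against 42.5%. In S42D against Tw1KD, 2 were higher and 3 lower, against 43.4%, and the count of 5 fell to 3 after quantile normalization. S42D against S42A was the comparison in which all 5 called genes ran the same way, lower in S42D. Of all genes 36.1% were called there, 3400 higher and 3805 lower. The count of 5 fell to 3 without S42D replicate 3. The median difference there was -0.18 log2 over the 6 tested genes and Gatm, beside -0.034 over all genes.

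**Figure D3:**
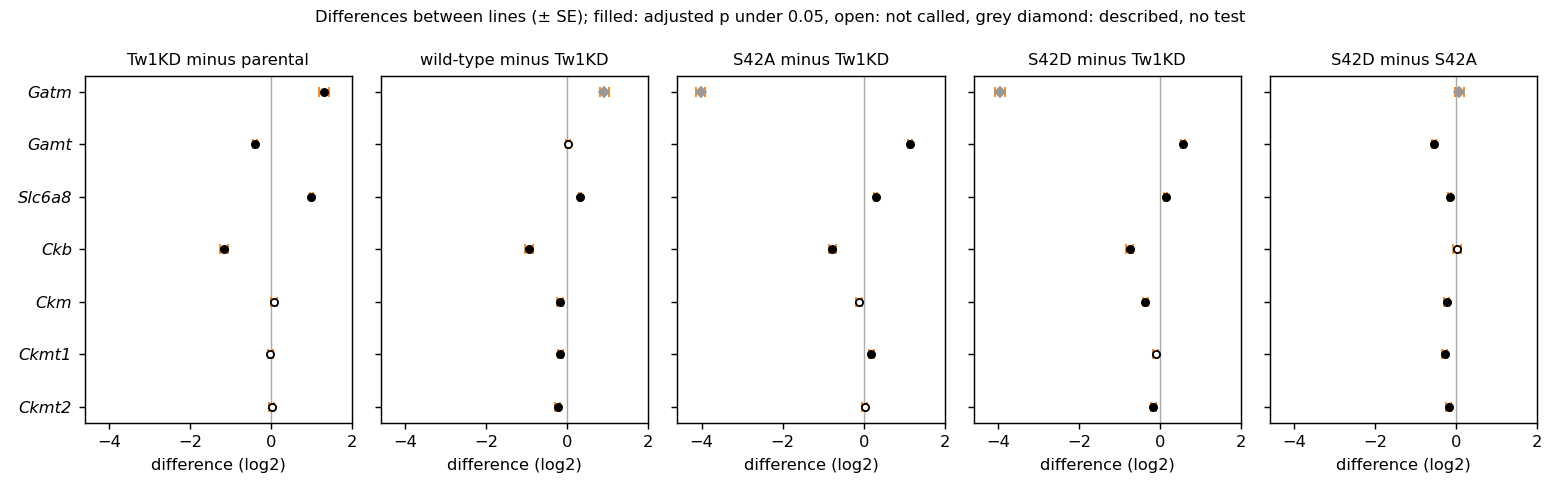
Differences between lines (log2, horizontal axis, orange bars of 1 SE, which are narrower than some markers) for the 7 genes in 5 comparisons. Filled points are called at an adjusted p under 0.05, open points are not, and grey diamonds mark Gatm where it was not tested. Slc6a8 and Ckb move in opposite directions against both parental and Tw1KD cells, and 5 of the 6 tested genes lie below 0 in S42D minus S42A.

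Against parental cells, the wild-type line had 1 gene higher and 4 lower, beside 49.0% of all genes called, and the count of 5 fell to 3 under median centring or quantile normalization. S42A had 3 higher and 1 lower, beside 40.3%, with Ckmt1 at 0.16 log2 only just past the threshold. That call was lost without S42A replicate 1 (0.17), 2 (0.14) or 3 (0.18) and without parental replicate 1 (0.18) or 3 (0.11). It was also lost with only the lines compared in the fit, with the replicate number as a block and under eBayes with trend and robust. S42D had 2 higher and 2 lower, beside 37.0%. The mitochondrial kinases lay below parental cells in the wild-type line by 0.19 for Ckmt1 (limma adjusted p = 0.02) and 0.22 for Ckmt2 (adjusted p = 0.0075). The Ckmt1 call was lost when parental replicate 1 (-0.18), parental replicate 2 (-0.15) or wild-type replicate 1 (-0.14) was left out, and neither was called under median centring or quantile normalization. Ckmt1 in S42D lay 0.12 below parental cells and was not called, but it was called without parental replicate 3 (-0.17). Gatm, not tested here, differed from parental cells by 2.22 log2 in the wild-type line, -2.72 in S42A and -2.64 in S42D.

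In the comparisons that chose the set, 40.0% of all genes were called in S42A against wild-type Twist1 and 43.3% in S42D against wild-type Twist1. In each, 4 of the 7 genes had arrays that did not overlap, beside 51.5% and 53.4% of all genes. These counts are a description.

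The pathways around creatine were followed through 6 lists of genes, which exclude the 7 above. Of 29 genes of arginine and urea cycle metabolism, 25 were measured. In Tw1KD against parental cells 6 rose and 5 fell, in wild-type against Tw1KD 5 rose and 7 fell, in S42A against Tw1KD 6 rose and 7 fell, and in S42D against Tw1KD 9 rose and 5 fell. The shares of all genes called in these comparisons, against which the counts of this and the following lists are read, were 36.3%, 48.0%, 42.5% and 43.4%. Arg2, the mitochondrial arginase, which competes with GATM for arginine, fell by 0.94 ± 0.050 log2 in the wild-type line and rose by 2.32 ± 0.050 in S42A, both against Tw1KD. In S42D it lay 0.23 above Tw1KD cells, and against wild-type Twist1 it was higher by 3.25 in S42A and 1.17 in S42D. Arg2 was thus above wild-type in both lines in which Gatm was low, at unlike sizes. Its difference between S42D and S42A was -2.08. Ddah1, an enzyme that breaks down methylated arginine, fell by 1.84 ± 0.044 with Twist1 depletion and rose against Tw1KD by 1.84 in wild-type cells, 1.94 in S42A and 1.45 in S42D. Its paralog Ddah2 fell by 1.58 ± 0.14 with depletion, and against Tw1KD it rose by 0.65 in wild-type cells and changed by -1.81 in S42A and -2.30 in S42D. Ddah2 was thus the list member that, like Gatm, lay above Tw1KD cells in the wild-type line and below them in both substituted lines, among those named. The median difference of the list lay between -0.098 and 0.063 log2 in these comparisons, beside -0.061 to 0.0051 over all genes.

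The methionine and methyl group cycle supplies the S-adenosylmethionine that GAMT uses. Of 24 genes 19 were measured. In Tw1KD against parental cells 8 rose and 4 fell, and against Tw1KD cells 3 rose and 6 fell in the wild-type line, 3 rose and 8 fell in S42A and 7 rose and 7 fell in S42D. Folr1, a folate receptor, rose by 3.08 ± 0.10 log2 with depletion and changed against Tw1KD by -3.23 in wild-type cells, -2.82 in S42A and -3.33 in S42D. Mthfd2, a mitochondrial folate enzyme, rose by 1.08 ± 0.047 with depletion and changed against Tw1KD by -0.81 in wild-type cells, -1.46 in S42A and -1.03 in S42D. Cth, which makes cysteine from cystathionine, fell by 0.60 ± 0.071 with depletion and differed from Tw1KD by -0.41 in wild-type cells, 0.14 in S42A, which was not called, and 0.87 in S42D. List medians were 0.059, -0.055, -0.12 and 0.0010 log2 in this order, beside 0.0051, -0.061, -0.013 and -0.045 over all genes.

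Glycine is the other substrate of GATM. Of the 15 measured genes of serine and glycine metabolism, 8 rose and 4 fell in Tw1KD against parental cells, with a median of 0.22 log2 beside 0.0051 over all genes. Gcat, which cleaves a threonine product to glycine, rose by 0.64 ± 0.038 and Phgdh, the first enzyme of serine synthesis, by 0.59 ± 0.062. Against Tw1KD cells 5 rose and 5 fell in the wild-type line, 5 rose and 5 fell in S42A and 5 rose and 7 fell in S42D. List medians there were -0.021, -0.024 and -0.24 log2 in this order, beside -0.061, -0.013 and -0.045 over all genes. Gcat was 1.19 ± 0.038 lower in S42D than in S42A, and Srr, serine racemase, was 0.91 ± 0.062 higher.

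Adenylate kinases and AMP-handling enzymes form a parallel route of phosphate transfer. Of 19 measured, 10 rose and 3 fell in the wild-type line against Tw1KD, with a median of 0.16 log2 beside -0.061 over all genes. Ak1, the cytosolic adenylate kinase, rose by 1.21 ± 0.046 there after a fall of 0.55 with depletion, and Ak3, a matrix enzyme, fell by 0.85 ± 0.041 after a rise of 0.33. In Tw1KD against parental cells 8 rose and 2 fell, in S42A against Tw1KD 6 rose and 4 fell, and in S42D 8 rose and 3 fell. Nt5e, the surface enzyme that makes adenosine from AMP, was 2.01 ± 0.043 log2 higher in S42D than in S42A.

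Another list held genes whose products work beside mitochondrial creatine kinase, such as adenine nucleotide carriers and porins. Of 14 measured, 4 rose and 2 fell with depletion, 1 rose and 4 fell in the wild-type line against Tw1KD, 3 rose and 3 fell in S42A and 2 rose and 4 fell in S42D. In S42D against S42A 1 rose and 7 fell, where 36.1% of all genes were called, 3400 higher and 3805 lower. The list median there was -0.11 log2 beside -0.034 over all genes. The member that rose was Alpl, tissue-nonspecific alkaline phosphatase, which has phosphocreatine among its substrates. Alpl fell by 1.67 ± 0.069 log2 with depletion, rose by 1.71 in S42D against Tw1KD and was 1.94 higher in S42D than in S42A. Against Tw1KD it changed by -0.38 in the wild-type line and by -0.23 in S42A, a call lost without Tw1KD replicate 2 (-0.19). Slc25a4, an adenine nucleotide carrier, fell by 0.19 ± 0.042 with depletion and rose against Tw1KD by 0.19 in wild-type cells, 0.37 in S42A and 0.16 in S42D, the last not called under median centring (0.11).

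**Figure D4:**
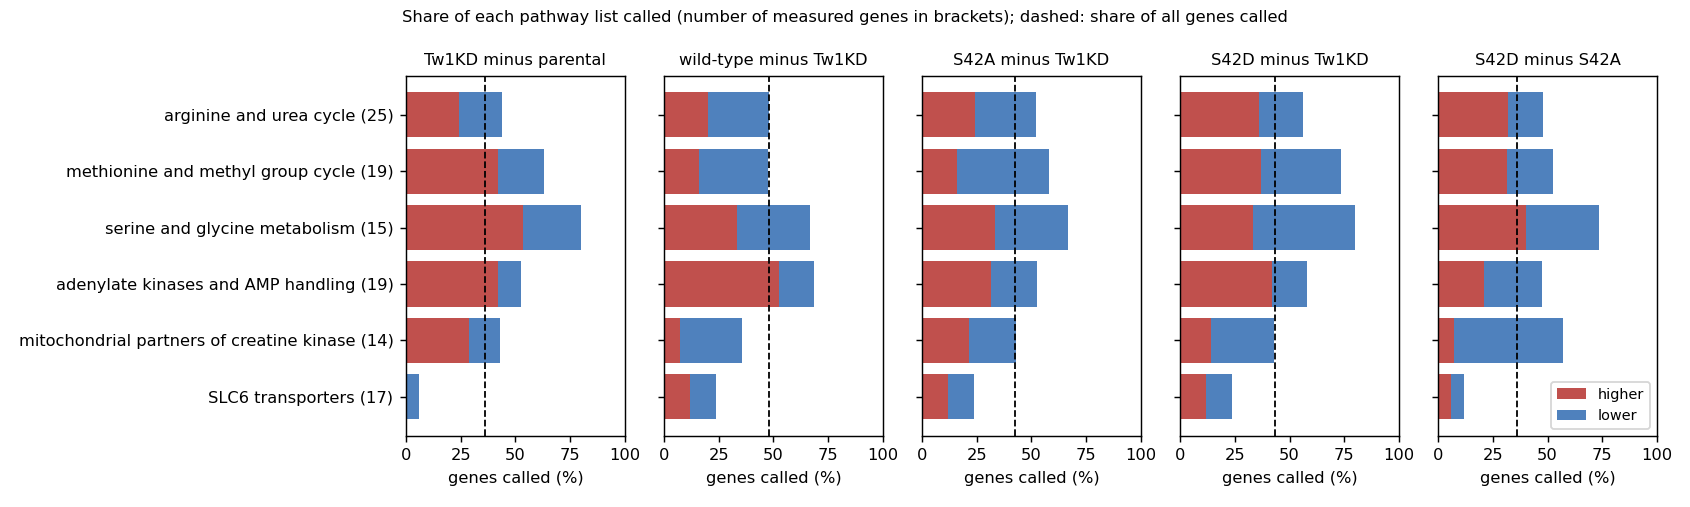
Share of the measured genes of each of 6 pathway lists (number in brackets) that was called higher (red) or lower (blue), in 5 comparisons, with a dashed line at the share of all genes called. SLC6 transporters lie below the dashed line in all 5 comparisons. The lists of serine and glycine metabolism and of adenylate kinases and AMP handling lie above it in all 5.

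Slc6a8 belongs to the SLC6 family of sodium-coupled transporters, of which 17 other members were measured. With depletion none of these rose and 1 fell, and against Tw1KD cells 2 rose and 2 fell in each of the 3 lines. The family member that fell was Slc6a6, the taurine transporter, by 0.61 ± 0.037 log2, while Slc6a8 rose by 1.0. Slc6a6 rose against Tw1KD cells in all 3 lines, by 0.46 in wild-type cells, 0.90 in S42A and 0.80 in S42D. Slc6a9, a glycine transporter, changed by -0.36 ± 0.039 in the wild-type line, -0.54 in S42A and -0.48 in S42D. Slc6a8 was thus the measured member of the family that was called higher with depletion.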

How the data were processed

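Transcripts were measured on Affymetrix mouse gene arrays in 5 lines, 3 arrays each. The deposited values are log2 intensities, 1 per probe set, as the authors summarised them, and the unit was read from the values. The submitters' processing notes name R 2.10.0 and affy without a role. How background was removed, arrays were normalized and probes were combined is not given in the sources used here. Values scaled between arrays give differences relative to the other transcripts, and dim signals compress folds. Precision is limited by the array number.

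Of 34760 probe sets, 21640 carried 1 symbol, 1321 several and 11799 none. Symbols were updated by gene number (21553 matched) against a RefSeq table of GRCm38.p6. Each of 19937 genes was represented by its brightest probe set with 1 symbol, and each of the 7 genes had a single probe set. Array medians lay between 6.57 and 6.72 log2.

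limma 3.58.1 (R 4.3.3) was run on all arrays with 1 mean for each line (lmFit and eBayes, 2-sided) and Benjamini-Hochberg adjustment over all genes in each of 10 comparisons. Genes with an adjusted p under 0.05 were called. The fit was tested on simulated data. Alternatives were median centring, quantile normalization, a fit of only the lines compared, the replicate number as a block, array weights, the mean of all probe sets, omission of the dimmest 25% of genes, eBayes with trend and robust, and leaving out each array. Likeness was sought among genes with a span of line means of at least 1 log2, the 6 highest being named. List genes are from the 2 largest called changes per list and direction, and chromosomal neighbours are the 4 nearest measured named genes per side. The 7 genes and the 11 lists were chosen with earlier results of these data known. Same-numbered arrays did not deviate together more than differently numbered ones, so replicate numbers were not taken to pair samples.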

Additional observations from a re-analysis of the deposited data

Results flagged for a closer look

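Gatm differed from Tw1KD cells by 0.91 log2 in the wild-type Twist1 line, higher on each of 3 arrays, and by -4.03 and -3.95 in S42A and S42D, lower on each array. The lines thus moved in opposite directions, and this difference was not tested because it chose the genes described here.

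The effects of S42A and S42D against Tw1KD differed from each other for 5 genes, by limma's test of S42D against S42A over 3 arrays per line. S42D lay lower by -0.56 log2 for Gamt (adjusted p = 4.4e-07), -0.16 for Slc6a8 (adjusted p = 0.0022) and -0.28 for Ckmt1 (adjusted p = 0.002), with no overlap between arrays. For Ckm the difference was -0.24 (adjusted p = 0.013) and for Ckmt2 -0.18 (adjusted p = 0.025), with no overlap either. Both calls were lost without single arrays, that for Ckmt2 also after quantile normalization and under eBayes with trend and robust. In this comparison 46.2% of all genes had arrays that did not overlap, and 36.1% were called.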

How the results depend on the processing

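Every call for Gatm, Ckb, Slc6a8 and Gamt kept its direction, and only Gamt in S42D against parental cells and Slc6a8 in S42D against Tw1KD lost a call. The number of genes called in wild-type against Tw1KD (5) became 3 with median centring, 2 with quantile normalization, 3 with only both lines fitted, 3 with eBayes trend and robust, and 3 to 4 with an array left out. In S42D against Tw1KD it was 3 after quantile normalization and 4 to 5 with an array left out. In wild-type against parental cells it was 3 with median centring and 3 with quantile normalization, and in S42D against S42A 3 to 5 with an array left out. Leaving out an array, Gatm differed from wild-type by -5.00 to -4.87 log2 in S42A and by -4.93 to -4.76 in S42D.

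Among the 7 genes, every difference whose sign turned was untested or not called. With median centring these were Ckmt1 in Tw1KD minus parental (0.029), Ckmt1 and Ckmt2 in S42D minus wild-type (-0.024 and -0.021), Gatm in S42D minus S42A (-0.0018), Ckb in S42D minus S42A (-0.056) and Ckm in S42A minus parental (0.041). With quantile normalization they were Ckmt1 in Tw1KD minus parental (0.0075), Gamt in wild-type minus Tw1KD (-0.029), Slc6a8 in S42A minus wild-type (0.0028), Ckb in S42D minus S42A (-0.046) and Ckm in wild-type and in S42A minus parental (0.0089 and 0.016). With array weights they were Ckmt1 (0.041), Gamt (-0.021) and Ckb (-0.036) in the same comparisons. Without single arrays they were Ckmt1 (-0.078 to 0.024) and Ckmt2 (-0.017 to 0.053) in Tw1KD minus parental, Gamt in wild-type minus Tw1KD (-0.050 to 0.040), Ckmt2 in S42A minus Tw1KD (-0.011 to 0.073), Ckb in S42D minus S42A (-0.069 to 0.092), Slc6a8 in S42A minus wild-type (-0.026 to 0.0011) and Ckm in S42A minus parental (-0.094 to 0.018), given as the range over arrays left out. With the mean of all its probe sets, Hk1, a list gene called lower in S42A (-0.19) and wild-type (-0.20) minus Tw1KD, turned to 0.11 and 0.087. The cause was not tested.

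Median centring moved the share of calls that were higher from 54.8% to 65.2% in Tw1KD minus parental, 50.0% to 39.5% in S42D minus Tw1KD, 47.9% to 33.2% in S42D minus wild-type, 47.2% to 30.0% in S42D minus S42A, 51.0% to 68.4% in wild-type minus parental and 56.1% to 71.7% in S42A minus parental. It moved the median of all genes by up to 0.10 log2, in wild-type minus parental (-0.050 to 0.051). With the replicate number as a block, Ckmt1 in S42A minus parental was lost (0.16) and Ckmt2 in S42D minus parental was called (-0.14), and the calls over all genes in Tw1KD minus parental were 7046 against 7242. Same-numbered arrays correlated in their deviations at -0.39 to 0.42, with 7 of 30 pairs over 0.1. Differently numbered arrays correlated at -0.44 to 0.43, with 20 of 60 pairs over 0.1. Parental replicate 2, Tw1KD replicate 2, wild-type replicate 3, S42A replicate 1 and S42D replicate 3 correlated with each other at 0.15 to 0.43. Some arrays thus deviated together across lines, and the cause was not tested. Ckmt2 was not tested where the dimmest 25% of genes was left out.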
